A study of Mus musculus with 36 samples.

Results

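The lysyl oxidase family was taken by gene symbol from the deposited count files: Lox, Loxl1, Loxl2, Loxl3 and Loxl4, which are 5 of the 24421 genes in each of 36 liver libraries. All 5 had reads in every library and all 5 passed the filter on low counts in every comparison. The livers came from male C57BL/6J mice, bought at 7 weeks of age, kept for 1 week, and then given CDAHFD, a choline-deficient, amino acid-defined high-fat diet that injures and scars the liver, for 12 weeks. In the first experiment the mice then received HFD, a high-fat diet, and weekly subcutaneous injections over 2 weeks, either of Fc at 4.3 mg/kg (n = 10) or of Fc(mML1)B3 at 5 mg/kg (n = 10). In the second experiment they received standard diet and were killed after 10 days, with injections on days 1, 4 and 7 of Fc in 9 mice and of Fc(mML1)B3 in 7, at the same doses. Fc is the constant fragment of an antibody and served as the control, and Fc(mML1)B3 is the same fragment carrying a grafted peptide that binds and activates Met, the receptor of hepatocyte growth factor. All 36 mice therefore had the same injury diet, and no group of untreated or healthy livers was analysed here. The 2 diets were separate experiments with other injection schedules and times.

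Lysyl oxidases are secreted, copper-dependent amine oxidases that turn lysine and hydroxylysine side chains of collagen and elastin into reactive aldehydes, from which covalent crosslinks form between fibres. Lox and Loxl1 are made as precursors that proteinases of the Bmp1 group cut, and Loxl1 is best known for the upkeep of elastic fibres. Loxl2, Loxl3 and Loxl4 carry scavenger receptor cysteine-rich repeats in front of the same catalytic domain, and Loxl2 is known for acting on the collagen IV of basement membranes. In scarred liver the enzymes come mainly from stellate cells, portal fibroblasts and other mesenchymal cells, and crosslinked matrix is slow to be broken down.

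The members resemble each other most in the catalytic domain, and the stretch around its histidine-rich copper-binding motif is shown because reads of paralogous genes can only be told apart where such sequences differ. Each line gives the same 27 codons (81 bases, 5′ to 3′) of the coding sequence of 1 member from the GENCODE M21 transcripts on GRCm38, the assembly also named mm10, and capitals mark the 43 bases that the 4 printed members have in common.
Loxl1: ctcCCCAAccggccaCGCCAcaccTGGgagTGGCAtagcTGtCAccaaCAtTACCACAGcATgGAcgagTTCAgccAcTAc
Loxl2: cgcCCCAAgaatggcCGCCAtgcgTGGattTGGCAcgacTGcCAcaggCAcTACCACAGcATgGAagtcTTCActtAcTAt
Loxl3: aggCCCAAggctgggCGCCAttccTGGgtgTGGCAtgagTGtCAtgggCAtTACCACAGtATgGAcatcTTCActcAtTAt
Loxl4: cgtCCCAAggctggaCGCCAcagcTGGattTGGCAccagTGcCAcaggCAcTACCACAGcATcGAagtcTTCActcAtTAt
The motif itself is the middle 11 codons, with 8 codons on either side. In Loxl1 the stretch joined exons 3 and 4 of 7, on the minus strand between chr9:58293696-58294405. In Loxl2 it joined exons 10 and 11 of 14, on the plus strand between chr14:69682292-69689061, and in Loxl3 exons 10 and 11 of 14, on the plus strand between chr6:83049971-83050149. In Loxl4 it joined exons 11 and 12 of 15, on the minus strand between chr19:42598783-42599923. Over the 10 pairs of members, identity in this stretch ran from 58.0% to 85.2%. Loxl2 and Loxl4 were 84.0% identical there, whereas Loxl1 shared 64.2% of bases with Loxl2 and 64.2% with Loxl4. Lox was closest to Loxl1, at 85.2%. Even so, the longest run of identical bases between any 2 of the 5 transcripts was 32 bases, between Lox and Loxl1.

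Livers were measured by paired-end RNA sequencing, and the files held 14949035 to 28466853 counted reads per library (median 23558194.5), each end of a pair being counted as 1 read. Levels are given as CPM, reads scaled to the size of the library after TMM scaling over all 36 libraries, and as RPKM, the same per kilobase of exon, where genes are compared with each other. Lox and Loxl4 were the thinnest, with medians of 36 and 34 reads per library, Loxl3 had 98.5, Loxl1 185.5 and Loxl2 227.5. Counting pairs alone gives a relative error of 23.6% for Lox and 24.3% for Loxl4 at those medians, against 10.4% for Loxl1 and 9.38% for Loxl2. The exons of Loxl3 overlapped those of Htra2 on the opposite strand over 534 bases, 13.19% of its exon length, and reads there were counted for neither gene. The hepatocyte list summed to 82400 to 159000 CPM across the 36 livers, although Ass1, 1 of its 8 genes, had at most 7 reads in a library. Mouse 5 of the HFD Fc(mML1)B3 group stood apart: its summed CPM was the highest of the 10 mice for elastic fibre (433), stellate cell (633), cholangiocyte (852) and monocyte-derived macrophage genes (1890), and the lowest for hepatocyte genes (82400). Its library was also the smallest of the 36, so the main results are also given without it.

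Per length, Loxl1 had the highest mean level of the family in all 4 groups. In Fc livers under HFD the mean level was 5.30 ± 2.33 RPKM for Loxl1, 2.37 ± 0.62 for Loxl2, 1.56 ± 0.35 for Loxl3, 0.383 ± 0.116 for Lox and 0.330 ± 0.147 for Loxl4 (SD, n = 10). Loxl1 exceeded Loxl2 in all 10 of these mice, on average 2.11-fold, Loxl2 exceeded Loxl3 in 9 of 10, 1.51-fold, and Loxl3 exceeded Lox in all 10, 4.19-fold (exact 2-sided sign-flip permutation test on the paired log2 values, adjusted p = 0.00893 for each over 16 neighbour pairs). Lox and Loxl4 did not differ beyond their spread, with Lox higher in 5 of 10 mice (adjusted p = 0.346, exact permutation test). In Fc livers under standard diet every step of the order passed, including Lox above Loxl4 in 7 of 9 mice (1.34-fold, adjusted p = 0.0455, exact permutation test).

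In Fc(mML1)B3 livers Loxl1 and Loxl2 could not be ordered, and whether their ratio differed from that in Fc livers was not tested. Under HFD it was 2.46 ± 1.68 against 1.78 ± 0.39 RPKM and higher in 6 of 10 mice (adjusted p = 0.346, exact permutation test), and under standard diet 1.80 ± 0.66 against 1.69 ± 0.18 RPKM and higher in 4 of 7 (adjusted p = 1.0, exact permutation test). Loxl2 stayed above Loxl3 in 9 of 10 and in 7 of 7 of these mice. Loxl4 and Lox again could not be ordered. Without mouse 5 the order under HFD was the same, Loxl1 being at 1.98 and Loxl2 at 1.76 RPKM (higher in 5 of 9 mice, adjusted p = 0.643, exact permutation test).

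Added up, the family stood at 9.94 ± 3.09 RPKM in Fc and 6.16 ± 2.28 RPKM in Fc(mML1)B3 livers under HFD, and at 6.28 ± 1.30 and 4.90 ± 0.65 RPKM under standard diet. Loxl1 made up 51.6% ± 8.3 of the sum in Fc livers under HFD and 37.0% ± 9.2 with Fc(mML1)B3, while the share of Loxl2 was 24.8% ± 5.7 and 30.7% ± 7.3. Without mouse 5, whose family sum of 11.8 RPKM was the highest of its group, the Fc(mML1)B3 sum was 5.54 ± 1.23 RPKM and the shares of Loxl1 and Loxl2 were 34.7% ± 6.1 and 32.2% ± 5.7 (n = 9). Under standard diet the share of Loxl1 was 41.8% ± 5.6 and 35.8% ± 9.8, that of Loxl2 29.4% ± 3.3 and 35.3% ± 7.9, and that of Lox 8.55% ± 1.63 and 5.02% ± 0.92. These shares were not tested. In whole liver, fewer cells of a type and less RNA per cell cannot be told apart.

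**Figure D1:**
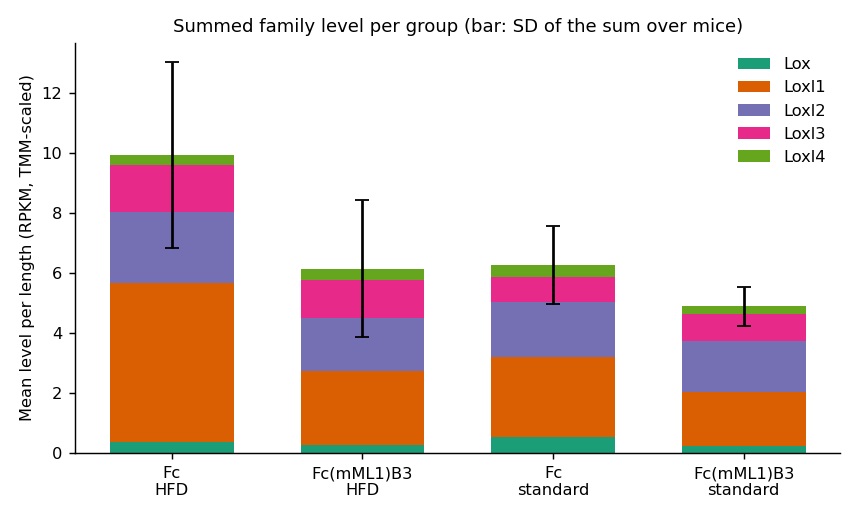
Mean level per length (RPKM, y axis) of the 5 members stacked for each of the 4 groups (x axis), with the SD of the summed level over mice as a bar. The sum is highest in Fc livers under HFD, at 9.94 RPKM, and Loxl1 is the largest part there.

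The first comparison asked what Fc(mML1)B3 changed when fat feeding went on. Loxl1 fell and no other member passed the test. In Fc livers Loxl1 (mm10, chr9:58287723-58313212, minus strand) ran from 6.78 to 30.7 CPM with a median of 16.2, and in Fc(mML1)B3 livers from 3.54 to 22.5 CPM with a median of 6.78. Treated mice were mostly low, 9 of 10 being under the Fc median and 5 under every Fc mouse, but the groups overlapped, with mouse 5 at 22.5 CPM and mouse 8 at 12.3 CPM. The mean was 17.7 ± 7.76 CPM in Fc and 8.20 ± 5.61 CPM in Fc(mML1)B3 livers (SD, n = 10 each), which in edgeR's test came to a log2 fold change of -1.09 with a standard error (SE) of 0.29 (95% interval -1.70 to -0.48, adjusted p = 0.0145). The permutation test of the mean log2 CPM gave p = 0.00272, adjusted over the 5 members to 0.0136. Without mouse 5 the log2 fold change was -1.39 (adjusted p = 0.000487), and all 20 fits that left out 1 mouse called Loxl1.

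The call has to be read against how many genes changed. Of the 13299 genes tested under HFD, 14.8% were called in either direction and 6.68% were called lower, against 1 of the 5 members. By the thresholds the study set for this diet, an adjusted p below 0.1 and a fold above 2, Loxl1 was again the 1 member called, among the 0.677% of genes that were lower by that rule. The Fc(mML1)B3 libraries fell into 2 runs of sample numbers in the file headers, which the labels do not explain, and the Fc libraries formed another. No run under HFD thus held both proteins, so protein and run cannot be told apart in any HFD comparison given here. With the 4 mice of the first run alone the log2 fold change of Loxl1 was -1.41 (adjusted p = 0.0212), and with the 6 of the other, which holds mouse 5, it was -0.89 (adjusted p = 0.111).

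Loxl2, Loxl3 and Lox had lower means with Fc(mML1)B3 under HFD, and none of them passed the test. Loxl2 (chr14:69609476-69695834, plus strand) ran from 6.96 to 16.5 CPM (median 12.9) in Fc and from 6.603 to 13.4 CPM (median 8.61) in Fc(mML1)B3 livers, with 9 of 10 below the Fc median and 5 Fc mice above all treated ones (log2 fold change -0.40, SE 0.15, adjusted p = 0.0712). Loxl2 was called in 2 of the 20 fits that left out 1 mouse, without Fc mouse 6 or without Fc(mML1)B3 mouse 2, and in the second run of 6 mice alone (log2 fold change -0.57, adjusted p = 0.0269). Loxl3 (chr6:83034224-83052564, plus strand) ran from 3.597 to 7.96 CPM (median 6.70) in Fc and from 4.01 to 9.01 CPM (median 4.46) in Fc(mML1)B3 livers, with a log2 fold change of -0.29 (SE 0.15, adjusted p = 0.205). Its highest treated value was that of mouse 5, and without this mouse it was called, at -0.42 (adjusted p = 0.0287).

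Lox ran from 0.674 to 2.57 CPM (median 2.00) in Fc and from 0.936 to 2.78 CPM (median 1.38) in Fc(mML1)B3 livers, and here too 9 of 10 treated mice lay below the Fc median. Its log2 fold change was -0.40 (SE 0.22, adjusted p = 0.228), and -0.56 without mouse 5 (adjusted p = 0.0541). Loxl4 was the 1 member with a higher mean after Fc(mML1)B3. It (chr19:42592279-42612806, minus strand) ran from 0.844 to 2.89 CPM (median 1.52) in Fc and from 0.638 to 4.38 CPM (median 1.79) in Fc(mML1)B3 livers (log2 fold change 0.22, SE 0.32, adjusted p = 0.679). The treated mice differed by run: the 4 mice of the first had 0.638 to 1.5 CPM, and the 6 of the other 1.45 to 4.38 CPM. Accordingly the log2 fold change was -0.74 with the first run alone and 0.63 with the other, neither of which was called (adjusted p = 0.22 and 0.17).

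**Figure D2:**
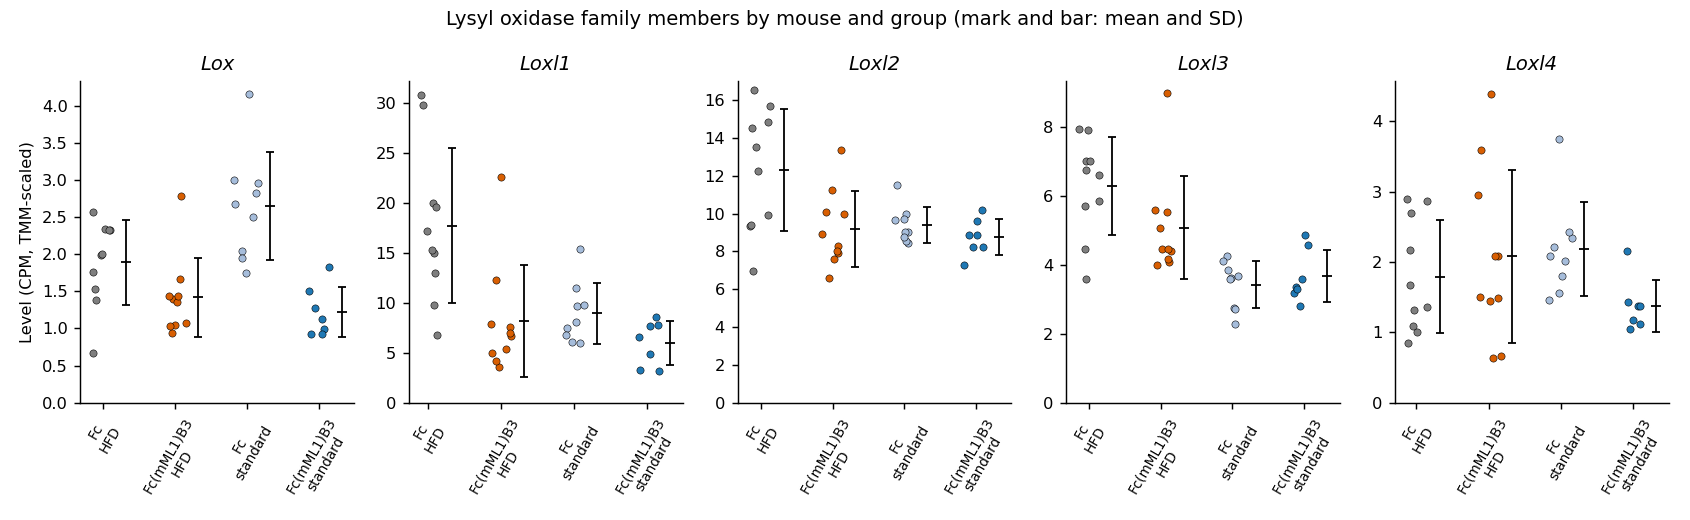
Level of each member (CPM on a linear axis from 0, y axis) in every mouse of the 4 groups (x axis), each point being 1 mouse, with the mean and SD beside the points. In the Loxl1 panel 1 treated HFD mouse lies at 22.5 CPM, far from the other 9, and in the Lox panel the standard diet groups meet only between 1.75 and 1.83 CPM.

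The second comparison asked the same after the change to standard diet. Here Lox and Loxl4 fell. Lox, at chromosome 18 of mm10 from 52516060 to 52529867 on the minus strand, ran from 1.75 to 4.16 CPM (median 2.67) in Fc and from 0.921 to 1.83 CPM (median 1.13) in Fc(mML1)B3 livers. All 7 treated mice lay below the Fc median and 6 below every Fc mouse, while 8 of the 9 Fc mice lay above every treated mouse, so that the groups overlapped by 1 mouse on each side. The mean was 2.65 ± 0.73 CPM (n = 9) and 1.22 ± 0.34 CPM (n = 7), a log2 fold change of -1.11 (SD over mice, SE of the fold 0.19, 95% interval -1.52 to -0.71, edgeR adjusted p = 0.000572). The exact permutation test gave p = 0.000175, adjusted over the members to 0.000874. All 16 fits without 1 mouse called Lox, with log2 fold changes from -1.24 to -1.01. Within the run of sample numbers that holds both proteins (4 Fc and 7 Fc(mML1)B3 mice) it was -1.18 (edgeR adjusted p = 0.0109).

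The change of Loxl4 was smaller. It ran from 1.46 to 3.74 CPM (median 2.09) in Fc and from 1.05 to 2.15 CPM (median 1.37) in Fc(mML1)B3 livers, where 6 of 7 mice lay below every Fc mouse and mouse 1 did not. The log2 fold change was -0.66 (SE 0.20, adjusted p = 0.0265), and the exact permutation test gave an adjusted p of 0.0114. The call was lost without Fc(mML1)B3 mouse 4, 5 or 6, the largest adjusted p of these fits being 0.0594. Within the run that holds both proteins it was -0.58 and not called (adjusted p = 0.123), and the call was also lost at equal depth (-0.63, adjusted p = 0.0584), with the replicate block (-0.72, adjusted p = 0.065) and in 1 model of the 4 groups (-0.66, adjusted p = 0.243). Lox and Loxl4 were 2 of 5 members called, where 16.1% of the 13570 genes tested were called and 7.55% were called lower. Both also passed 1 of the rules that the study names for this diet, an adjusted p below 0.05 and a fold above 1.5, by which 1.31% of genes were lower. The study also names a fold of 2 for it, which the 1.58-fold change of Loxl4 does not reach and the 2.16-fold change of Lox does.

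Loxl1, the member called under HFD, had a log2 fold change of -0.58 under standard diet (SE 0.22, adjusted p = 0.0826). It ran from 6.01 to 15.4 CPM (median 8.10) in Fc and from 3.22 to 8.60 CPM (median 6.56) in Fc(mML1)B3 livers, and 6 of 7 treated mice lay below the Fc median. Without Fc(mML1)B3 mouse 2, the highest of its group, Loxl1 was called (adjusted p = 0.0483). Loxl2 varied least among mice of a group, with a coefficient of variation of 10.1% in Fc and 10.9% in Fc(mML1)B3 livers, at 8.43 to 11.5 CPM (median 9.05) in Fc and 7.29 to 10.2 CPM (median 8.86) in Fc(mML1)B3 livers. Its log2 fold change was -0.11 with a 95% interval from -0.28 to 0.06 (adjusted p = 0.391), so that a fall of the size seen for Lox lies outside the interval. Loxl3 had a log2 fold change of 0.09 (95% interval -0.21 to 0.39, adjusted p = 0.716), on levels of 2.28 to 4.25 CPM in Fc and 2.81 to 4.87 CPM in Fc(mML1)B3 livers.

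Different members were thus called in the 2 diets, which does not show that the diets differed in what Fc(mML1)B3 did. For that the interaction of diet and protein was tested in 1 model of the 36 libraries, where 9.06% of 14105 genes were called and none of the 5 members was by edgeR, limma-voom or DESeq2. At an unadjusted p under 0.05 there were 2, Lox and Loxl4. The standard diet effect minus the HFD effect was -0.70 for Lox (SE 0.30, adjusted p = 0.165), -0.87 for Loxl4 (0.41, adjusted p = 0.216), 0.52 for Loxl1 (0.41, adjusted p = 0.525), 0.40 for Loxl3 (0.22, adjusted p = 0.312) and 0.31 for Loxl2 (0.18, adjusted p = 0.363). The 95% intervals were wide, from -1.31 to -0.08 for Lox and from -0.30 to 1.35 for Loxl1. Without mouse 5 the difference was 0.82 for Loxl1 (SE 0.36, adjusted p = 0.15) and 0.53 for Loxl3 (adjusted p = 0.085), again with no member called.

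**Figure D3:**
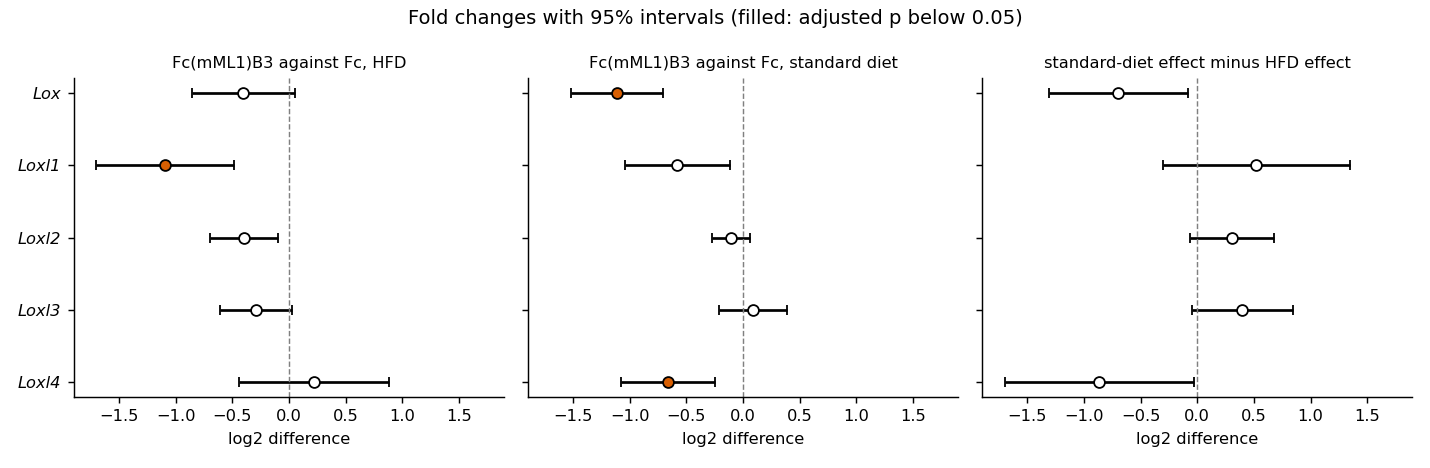
Log2 differences (x axis) with 95% intervals for the 5 members (y axis), for Fc(mML1)B3 against Fc under HFD, the same under standard diet, and the standard diet effect minus the HFD effect. Filled points passed an adjusted p of 0.05: Loxl1 under HFD, Lox and Loxl4 under standard diet, and none for the difference between diets.

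The 2 experiments were also set against each other, where a large share of all genes differed, so the members' counts are no result about the family. Among Fc livers, 4 of 5 members were called between standard diet and HFD, 1 of them in the opposite direction, where 47.9% of all genes tested were called. Loxl3 was lower under standard diet by a log2 fold change of -0.87 (SE 0.15, adjusted p = 1.55e-05), Loxl1 by -0.98 (0.28, adjusted p = 0.00378) and Loxl2 by -0.38 (0.13, adjusted p = 0.0114). Lox went the other way and was higher, by 0.49 (0.20, adjusted p = 0.0425), a call that was lost in 9 of the 36 fits without 1 mouse, over which the log2 fold change ran from 0.38 to 0.56, with upper-quartile scaling (0.41, adjusted p = 0.0968) and at equal depth (0.44, adjusted p = 0.0772). The 9 mice were Fc mice 2, 5, 8 and 10 of the HFD and Fc mice 1, 2, 5, 6 and 9 of the standard diet group, and the largest adjusted p without 1 of them was 0.0964. Loxl4 differed by 0.27 (adjusted p = 0.433). Among Fc(mML1)B3 livers, where 38.5% of genes were called, Loxl3 was the 1 member called (log2 fold change -0.47, SE 0.16, adjusted p = 0.0212), and the call was lost without HFD mouse 5 (adjusted p = 0.0584). Loxl1 was at -0.46 (adjusted p = 0.238), Loxl4 at -0.59 (adjusted p = 0.121), Lox at -0.21 and Loxl2 at -0.08. Without mouse 5 Loxl1 was at -0.16 (adjusted p = 0.667) and Lox at -0.06 (adjusted p = 0.868). Diet, experiment, injection schedule and time cannot be told apart in these contrasts, and the contrasts share libraries with those between the proteins.

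Each member was also set against the summed CPM of 12 stellate cell and myofibroblast genes in the same liver, as a description of unequal change. Under HFD the ratio of Loxl1 to that sum was lower with Fc(mML1)B3 by a log2 difference of -1.03 (SE 0.22, permutation p = 0.00038, adjusted p = 0.0019), and by -0.92 when 12 collagen genes were used (adjusted p = 0.00125). Without mouse 5 the first was -1.12 (exact permutation test, adjusted p = 0.000866). No other member passed under HFD. Under standard diet the ratio of Lox to the stellate genes was lower by -0.93 (SE 0.17, exact permutation p = 0.00035, adjusted p = 0.00175), and by -0.87 against the collagen genes (adjusted p = 0.00175 in the same test). The ratio of Loxl1 differed by -0.42 and that of Loxl4 by -0.46 (adjusted p = 0.0752 for both, exact permutation test), and that of Loxl3 by 0.29 (adjusted p = 0.0516, exact permutation test), none of which passed, although Loxl3 against the collagen genes did (0.34, adjusted p = 0.0426, exact permutation test) and Loxl1 against them did not (-0.37, adjusted p = 0.113, exact permutation test).

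Among the substrates, 15 of the 16 elastic fibre and microfibril genes were tested. Under HFD 2 of 15 fell and none rose, where 6.68% of all genes tested were called lower, with a median log2 fold change of -0.38 against -0.01 over all genes tested. These were Fbln5, a fibulin that brings Loxl1 to elastic fibres, at 24.9 ± 5.55 and 18.2 ± 4.64 CPM (SD, n = 10; log2 fold change -0.44, adjusted p = 0.0322), and Emilin1, a glycoprotein of the fibre surface, at -0.38 (adjusted p = 0.0481). Without mouse 5, when 21.3% of all genes were called and 10.8% were lower, there were 7, Eln, Fbn1, Fbn2, Mfap2 and Mfap4 being the others. Under standard diet 4 of 15 fell and none rose (median -0.15), where 7.55% of all genes were called lower. Eln, the elastin gene, went from 10.9 ± 3.87 CPM (n = 9) to 4.97 ± 1.32 CPM (n = 7), a log2 fold change of -1.14 (edgeR adjusted p = 0.000697), close in size to that of Lox. Fbn2 and Fbn1, the fibrillins of the microfibril, had log2 fold changes of -1.31 and -0.35 (adjusted p = 0.0223 and 0.0241), and Emilin1 one of -0.25 (adjusted p = 0.0284).

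Of the 12 collagen genes none was called under HFD by edgeR, where 10 of 12 were lower with a median log2 fold change of -0.37. Without mouse 5 there were 4, Col4a1, Col5a2, Col6a1 and Col6a2, against 10.8% of all genes called lower in that fit. Under standard diet, against the 7.55% of all genes, 5 of 12 fell (median -0.29), namely Col4a1 (-0.37, adjusted p = 0.00233), Col4a2, Col5a2, Col5a3 and Col6a2 (-0.52, adjusted p = 0.0402). The first pair are the chains of collagen IV, the basement membrane collagen.

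Among 11 genes that cleave the precursors or bind the enzymes or their substrates, 9 were tested. Bmp1, the proteinase that cuts the precursors of Lox and of collagen, rose under HFD from 82.6 ± 7.63 to 126 ± 23.7 CPM (SD, n = 10 each; log2 fold change 0.62, adjusted p = 0.000142). Under standard diet it was 93.2 ± 8.07 (n = 9) and 98.7 ± 10.5 CPM (n = 7), at 0.08 (edgeR adjusted p = 0.453), and the difference between the diets passed the test (-0.52, adjusted p = 0.00437). No other of the 9 was called under HFD, where Pcolce, an enhancer of Bmp1, and Fmod, a collagen-binding proteoglycan, were added without mouse 5, both lower. Under standard diet 3 of 9 fell, against 7.55% of all genes, namely Thbs1, a matricellular protein that binds latent TGF-beta (-0.69, adjusted p = 0.0148), and the procollagen N-proteinases Adamts2 (-0.38) and Adamts14 (-0.54). Among 13 other enzymes that modify or crosslink collagen, 4 rose under HFD, where 8.14% of all genes were called higher. They were P4ha1 (0.63, adjusted p = 0.00399) and P4ha2 (0.50), which are subunits of the main prolyl hydroxylase of collagen, P3h1 (0.45), a prolyl hydroxylase acting on another position, and Plod1 (0.22), a lysyl hydroxylase.

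Tgm1, a transglutaminase, moved in opposite directions in the 2 diets, falling under HFD (-0.71, adjusted p = 0.00322) and rising under standard diet (0.64, adjusted p = 0.0488). The difference between them passed the interaction test (1.37, adjusted p = 0.000783). Tgm2, another transglutaminase, fell under standard diet (-0.30, adjusted p = 0.00183), and under HFD it was at -0.21 (adjusted p = 0.0933) but was called lower without mouse 5, as was Fkbp10, a collagen chaperone. Under standard diet Serpinh1, another, also fell (-0.47, adjusted p = 0.00191). Of 8 genes of copper delivery, 1 was called in each diet, Memo1 under HFD (0.34, adjusted p = 0.00684) and Ccs, the copper chaperone of superoxide dismutase, under standard diet (0.12, adjusted p = 0.0427), both higher, the share of all genes called higher under standard diet being 8.56%.

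**Figure D4:**
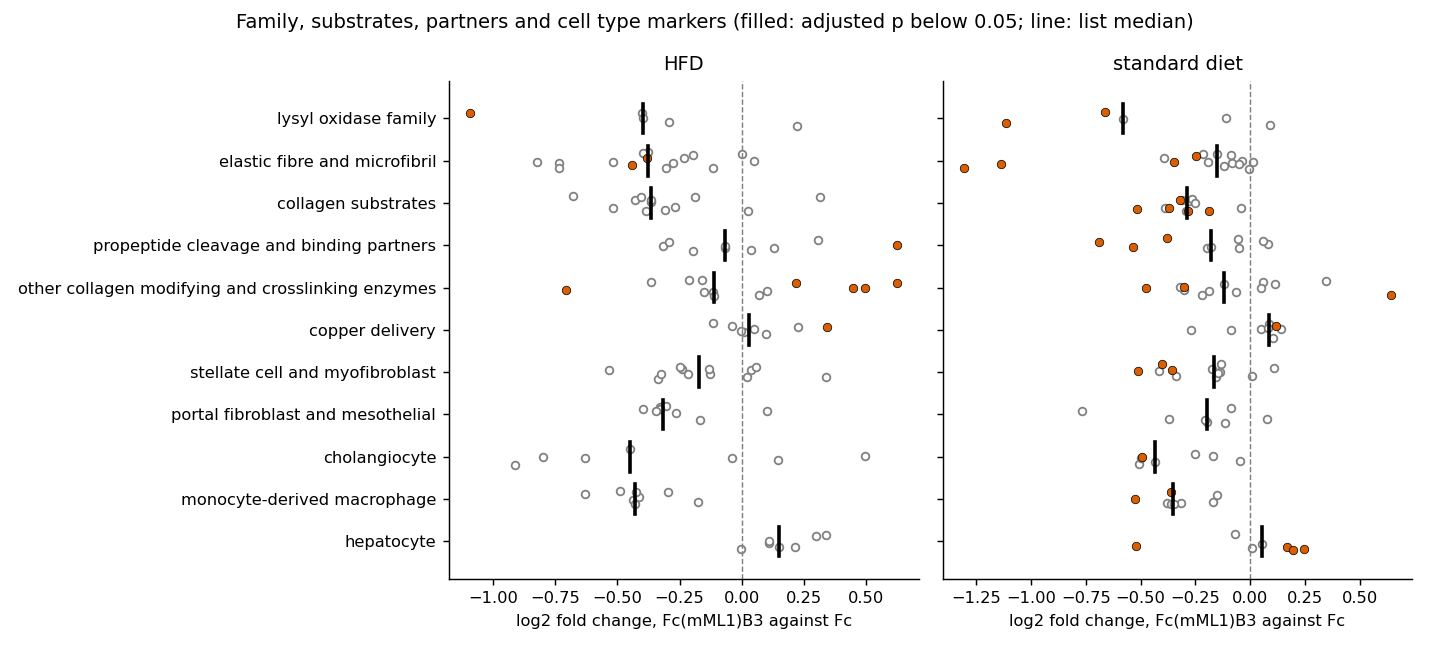
Log2 fold changes of Fc(mML1)B3 against Fc (x axis) under HFD and under standard diet for the family, its substrates and partners and 5 cell type marker lists (y axis), each point being 1 gene and the line the list median. Filled points passed an adjusted p of 0.05. All medians but those of the copper delivery and hepatocyte lists lie below 0 in both panels.

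Markers of the other cells in the liver are given as measured, and their counts of lower calls stand against 6.68% of all genes under HFD, 10.8% without mouse 5 and 7.55% under standard diet. Higher calls stand against 8.14% under HFD and 8.56% under standard diet. Without mouse 5, 21.3% of all genes were called in either direction. Of 12 stellate cell and myofibroblast genes none was called under HFD (median -0.17), 3 were without mouse 5, and 3 fell under standard diet, Pdgfrb (-0.51, adjusted p = 0.0073), Des and Nes. Their summed CPM ran from 312 to 491 in Fc and from 279 to 633 in Fc(mML1)B3 livers under HFD, and from 260 to 391 and from 244 to 294 under standard diet. Of the 8 monocyte-derived macrophage genes all 8 were lower in both diets, of which none was called under HFD, 6 were without mouse 5 (when all calls went from 1972 to 2848 genes, and with Spp1, which is on the cholangiocyte list too, among the 6), and 2 were under standard diet, Cd9 and Gpnmb. The median of their sum was 1220 CPM in Fc and 814 CPM in Fc(mML1)B3 livers under HFD, where mouse 5 had 1890 CPM, and 826 and 757 CPM under standard diet. Of the 7 tested cholangiocyte genes none was called under HFD, Cldn4, Krt23 and Spp1 were without mouse 5, and Sox9 alone fell under standard diet (-0.50, adjusted p = 0.0402). No gene of the portal fibroblast list was called in either diet, Entpd2 alone was without mouse 5 under HFD, and Gli1 of that list had at most 21 reads in a library. Of 3 tested smooth muscle genes Smtn fell under standard diet (-0.32, adjusted p = 0.00924) and none was called under HFD. Kupffer cell and sinusoidal endothelial genes had no call in either diet, save Gpr182 and Oit3, which were higher without mouse 5 under HFD. Of 7 hepatocyte genes none was called under HFD, Cps1 and Serpina1c were higher without mouse 5, and under standard diet Cyp2e1, Cps1 and Serpina1c rose and Fga fell. S100a8 and S100a9, of 4 tested neutrophil genes, fell under HFD (-1.46 and -1.27), and none of 5 was called under standard diet. The part of these cell types in the change of each member was not tested. The ratios to the stellate list given above describe unequal change alone.

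Genes of the circadian clock differed strongly between the proteins: 11 of 13 tested were called under HFD, against 14.8% of all genes, and 10 of 14 under standard diet, against 16.1%. Arntl rose from 1.20 to 18.6 CPM under HFD (log2 fold change 3.98, adjusted p = 1.08e-08) and fell under standard diet (-1.05, adjusted p = 0.0108), while Nr1d1 fell in both (-2.97 and -1.69). Next to Arntl by p under HFD were Nfil3 (1.87, edgeR adjusted p = 3.79e-08) and Cry1 (2.23, edgeR adjusted p = 3.45e-07), both higher. The hour at which the livers were taken is not given in the sources used here, and the part of the clock in the levels of the family was not tested.

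Among mice of 1 group under HFD, 4 of the 10 pairs of members passed by Pearson's r and 5 by Spearman's rho. Within-group deviations of log2 CPM correlated most between Loxl1 and Loxl3 (n = 20, Pearson r = 0.753, permutation p = 0.00059, adjusted p = 0.0059 over 10 pairs, and Spearman rho = 0.823, permutation p = 4e-05, adjusted p = 0.0004). Without the 2 mice farthest from the median of Loxl1, r was 0.567. The pairs Lox and Loxl1 (r = 0.682, permutation p = 0.002, adjusted p = 0.01, and rho = 0.602, permutation p = 0.00615, adjusted p = 0.0123) and Lox and Loxl3 (r = 0.667, permutation p = 0.00573, adjusted p = 0.0191, and rho = 0.645, permutation p = 0.00349, adjusted p = 0.00905) also passed. These 2 relations rested in part on mouse 5, since without it r was 0.552 and 0.524 (permutation test, adjusted p = 0.0753 and 0.105). Without the 2 farthest mice r was 0.366 and 0.439. Loxl2 and Loxl3 had r = 0.572 (permutation p = 0.0108, adjusted p = 0.0271, and rho = 0.671, permutation p = 0.00175, adjusted p = 0.00875), with r = 0.646 without the 2 farthest mice. Loxl1 and Loxl2 passed by rank alone (r = 0.490, permutation p = 0.0293, adjusted p = 0.0587, and rho = 0.635, permutation p = 0.00362, adjusted p = 0.00905, with r = 0.485 without the 2 farthest mice). Lox and Loxl2 did not pass (r = 0.174). Loxl4 did not pass with any member, its r running from -0.209 to 0.307, but without mouse 5 the rho of Lox and Loxl4 was 0.561 (permutation p = 0.0143, adjusted p = 0.0357) with r = 0.412 (adjusted p = 0.0943). Under standard diet no pair of the 10 passed over 16 mice, the highest r being 0.591 for Loxl1 and Loxl3 (permutation p = 0.0206, adjusted p = 0.206, and rho = 0.582, permutation p = 0.027, adjusted p = 0.26, with r = 0.598 without the 2 farthest). Loxl1 and Loxl2 had r = -0.064 there (permutation p = 0.826), from r = 0.790 among the 9 Fc and -0.832 among the 7 Fc(mML1)B3 mice, and the difference between these was not tested.

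The genes whose within-group deviations over the 36 livers were most like those of each member differed by member, and are given as a description. For Loxl1 they were Olfml3 (r = 0.934), Timp2 (0.934) and Ncam1 (0.930), a cell adhesion molecule. For Loxl2 they were Col4a1 (0.779) and Col4a2 (0.762), the collagen IV chains, and Myadm (0.715). For Loxl3 they were Sepn1 (0.828), Fblim1 (0.826) and Sfxn3 (0.808), for Lox Cdk14 (0.779), Ezr (0.766) and Fam26e (0.765), and for Loxl4 Capn15 (0.776), Fam168a (0.772) and Khnyn (0.760). For Loxl4 and its 3 genes r was 0.849, 0.830 and 0.844 under HFD, against 0.251, 0.378 and 0.240 under standard diet. Here and in the other correlations deviations were taken from the group mean, with the runs of sample numbers left in. Loxl4 differed by run among the HFD Fc(mML1)B3 mice. Of the genes named for Lox, Loxl2 and Loxl3, all but Sfxn3 (0.808 and 0.840) also had a lower r under standard diet. Examples are Col4a2 (0.797 and 0.413) and Cdk14 (0.876 and 0.525). For Loxl1 and its 3 genes r was 0.926 to 0.940 under HFD and 0.912 to 0.968 under standard diet. Without mouse 5 the 3 genes of Loxl1 were again the first 3, at 0.907 to 0.915, and the 12 named for the other members ranked between 1 and 6.

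By list, Loxl1 followed the cholangiocyte genes (median r = 0.82 over 7 genes), the elastic fibre genes (0.80 over 15) and the monocyte-derived macrophage genes (0.74 over 8) more closely than the stellate list (0.51 over 12), whose members spread from -0.10 to 0.87. Its median r was -0.64 with Kupffer cell genes, -0.53 with sinusoidal endothelial genes and -0.54 with hepatocyte genes. Loxl2 kept to the collagen genes (0.62) and had a median r of 0.12 with the portal fibroblast list. Lox was spread evenly over the elastic fibre (0.57), macrophage (0.57) and cholangiocyte (0.605) lists, and Loxl4 had no list above 0.29. The median r of Loxl4 was -0.40 with Kupffer cell and -0.35 with hepatocyte genes. Without mouse 5 the median r of Loxl1 was 0.78 with the cholangiocyte, 0.75 with the elastic fibre, 0.67 with the macrophage, 0.35 with the stellate and -0.36 with the hepatocyte genes, that of Lox with the stellate genes was 0.17 against 0.39, and that of Loxl4 with the elastic fibre genes was 0.37. With Kupffer cell and hepatocyte genes that of Loxl4 was then -0.52 and -0.49. All points share the same libraries and scaling, and a liver with more of 1 cell type has fewer of the others' reads at the same depth.

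**Figure D5:**
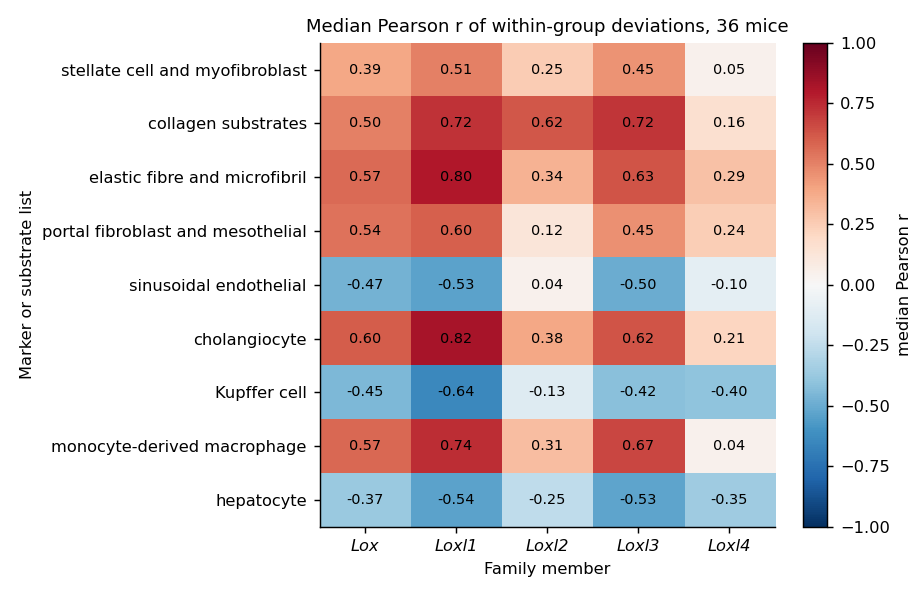
Median Pearson r (colour and printed value) between each member (x axis) and the genes of 9 marker or substrate lists (y axis), over within-group deviations of log2 CPM in 36 mice. The Loxl1 column holds the highest values, 0.82 with cholangiocyte and 0.80 with elastic fibre genes. The Loxl4 column holds none above 0.29, and its lowest is -0.40 with Kupffer cell genes.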

How the data were processed

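Liver RNA of 36 mice was sequenced in paired ends (DNBSEQ-G400, directional library kit). Per the labels and the study's methods, reads were trimmed with fastp, cleared of ribosomal RNA with Bowtie2 2.4.5, aligned to mm10 with STAR 2.7.10a and counted with featureCounts of Subread 2.0.3. The authors deposited raw counts per gene, unscaled. Their counting took each end as 1 read, ignored strand, and left out reads that map to several places or to several genes, so overlapping and near-identical stretches lose reads. No row was without a gene name.

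Each diet was tested by edgeR 4.0.16's quasi-likelihood F-test (TMM, filterByExpr, Benjamini-Hochberg adjustment over all genes tested, called at an adjusted p below 0.05), and the interaction and the diet contrasts in 1 model of 4 groups. DESeq2 1.42.0, limma 3.58.1 and other scalings, filters and subsets were alternatives. Permutation tests of log2 CPM (prior count 2) were exact where a group had under 10 mice and otherwise used 100000 resamples. The fits were tested on simulated data. The labels give the mice of a group as separate animals. The members and the gene lists were chosen with earlier results of these data known, so counts over them are descriptions. Named genes were all 5 members, list genes called in either diet (3 smallest p first), and the 3 genes most like each member. Of the clock list, Arntl and Nr1d1 were given in both diets without regard to that order. List genes called only without mouse 5, and those named for few reads, were chosen after their values were seen.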

Additional observations from a re-analysis of the deposited data

Results flagged for a closer look

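Of 20 sets of values (5 members in 4 groups), 6 had a mouse whose distance to its neighbour took up an unusual part of the group's range, where chance gives about 1 in 20. That rate holds only for independent, normally distributed values, and all 6 were high ones. Mouse 5 of the HFD Fc(mML1)B3 group accounted for 3 of them: Lox was 2.78 CPM there against 1.67 CPM in the next mouse, Loxl1 22.5 against 12.3 CPM, and Loxl3 9.01 against 5.60 CPM. In the same liver the stellate list summed to 633 CPM against at most 376 in the other 9 mice, the smooth muscle list to 53.1 against at most 17.3, and the hepatocyte list to 82400 against at least 106000, and the part of these in the family's levels was not tested. Its Loxl2 (10.1 CPM) and Loxl4 (1.45 CPM) lay within the range of the others. Loxl2 was 11.5 CPM in Fc mouse 6 under standard diet against 9.97 CPM in the next. Loxl4 was 3.74 CPM in Fc mouse 5 under standard diet against 2.43 CPM, and 2.15 CPM in Fc(mML1)B3 mouse 1 under standard diet against 1.42 CPM.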

How the results depend on the processing

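The members' fold changes and their counts of calls were recomputed with DESeq2, limma-voom with quality weights, upper-quartile scaling, DESeq2 size factors in edgeR, a filter at 0.5 CPM, no filter, read pairs, equal depth and without each mouse in turn. The order of levels and the correlations were recomputed without TMM scaling, the ratios with the collagen list, and, without HFD Fc(mML1)B3 mouse 5 alone, the ratios and list counts under HFD, the shares and order of levels in its group, and the correlations under HFD and over all livers. No called fold change of a member reversed. Under HFD 1 model of 4 groups called 2 members, adding Loxl2 (-0.41, adjusted p = 0.014). With the second run of HFD sample numbers alone Loxl1 was at -0.89 and not called and Loxl2 at -0.57 and called. Under standard diet 1 member was called at equal depth, in 1 model of 4 groups and within the run that holds both proteins, since Loxl4 was lost (-0.63, -0.66 and -0.58). With the replicate block 1 member was called under standard diet, Loxl4 being at -0.72 (adjusted p = 0.065), and under HFD 1 as before. Mouse numbers do not pair the mice: same-numbered mice correlated between -0.665 and 0.314 under HFD (2 of 10 over 0.1, 1 of 10 best with its own number) and between -0.174 and -0.019 under standard diet (0 of 7). The block called 1294 of all genes under HFD and 1302 under standard diet, against 1972 and 2186 without it. Other counts that moved by over 1.5 times under HFD were 3133 (1 model), 3039 (limma-voom) and 705 (first run alone), under standard diet 785 (1 model) and 942 (1 run), and for the interaction 2026 (limma-voom) against 1278. For standard diet against HFD in Fc(mML1)B3, limma-voom called 0 members (Loxl3 -0.34). The ratio of Loxl3 to the collagen list under standard diet was 0.34 and passed. Leaving out 1 mouse gave 1 to 2 members under HFD, 1 to 3 under standard diet, 0 for the interaction, 3 to 4 for the diets in Fc and 0 to 1 in Fc(mML1)B3. Over those fits Loxl2 ran from -0.47 to -0.34 and Loxl3 from -0.42 to -0.25 under HFD, and Loxl1 from -0.69 to -0.45 and Loxl4 from -0.80 to -0.53 under standard diet. Without TMM scaling 11 of 20 correlations between members moved by 0.1 or more, that of Loxl1 and Loxl2 under HFD to 0.66. Results without HFD Fc(mML1)B3 mouse 5, other than the members' own fits, were added after seeing the data. Lox had 14 to 106 and Loxl4 15 to 122 reads per library, and the counting error given above is that of 1 library. The SE of their log2 fold changes between proteins ran from 0.195 to 0.319. The smallest change that could be detected was not tested.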
